A study of Mus musculus with 6 samples.

Results

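Cyclins and cyclin-dependent kinases (CDKs) were examined in hair follicle stem cells (HFSCs) sorted from WT and Dab2-cKO mice. Members were taken by gene symbol from the array annotation. The rule took the lettered and numbered cyclins A to T other than cyclin G, the cyclins Ccnc, Ccnf, Ccnh, Ccnk and Ccny, and every symbol that is Cdk followed by a number and nothing else. It found 37 of the 30929 genes tested, of which 18 were cyclins and 19 were CDKs. Ccnb1 was not analysed here, as no row was assigned to it. The row of Ccnd1, Ccnf, Cdk9 and Cdk12 is in each case also assigned to a microRNA gene, so its signal could come from either.

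Both groups were female mice of the strain B6;129S4-Dab2tm1Cpr/J at postnatal day (PD) 35, and all carried Dab2 fl/fl alleles and received tamoxifen at 75 mg/kg for 5 days. The WT mice were K14 Cre negative and the Dab2-cKO mice K14 Cre positive, so that the Cre, driven by the keratin 14 promoter of basal keratinocytes, was present in 1 group only. Cells from trypsin-treated dorsal skin were sorted by CD34 and α6-integrin, and 3 arrays per group were hybridised, which the labels call biological replicates. The study places WT follicles of this age at the start of hair growth (anagen) and Dab2-cKO follicles still in rest (telogen), so genotype, Cre and hair cycle phase cannot be told apart. Values are log2 signals of a whole-transcriptome Affymetrix array, errors are SD for group means and SE for differences, and each difference is arrays labelled Dab2-cKO minus WT.

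Cyclins are regulatory subunits that activate CDKs and direct them to their substrates. D-type cyclins with Cdk4 or Cdk6 and E-type cyclins with Cdk2 drive entry into DNA synthesis, and A-type and B-type cyclins with Cdk2 or Cdk1 carry cells through DNA synthesis into mitosis. Another branch, which holds Cdk7 to Cdk9, Cdk12, Cdk13 and Cdk19, phosphorylates RNA polymerase II or its Mediator complex. In the resting follicle most bulge stem cells are quiescent, and division resumes in the hair germ and then the bulge as growth begins.

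Dab2 itself was read as 6.61, 6.49 and 6.46 log2 units on the WT arrays and as 8.86, 8.76 and 8.94 on the arrays labelled Dab2-cKO. It was at least 3.02-fold higher in the group labelled as its knockout (difference 2.34 ± 0.08, limma adjusted p = 1.33e-05). The sources used here do not give where the probes of this row lie relative to the deleted part, and probes outside it check nothing. Markers of other cells also moved between the groups, as given below, and the part of such cells in the Dab2 signal was not tested. Groups are therefore called by their labels, and every direction below rests on those labels. The arrays correlated at r of at least 0.9913 within a group and at most 0.9365 between groups. A background level of 7.26 log2 units was set from 1532 genes of smell and pheromone receptors, as the percentile 95 of their means over the arrays. The same level served both groups, although the array medians of these genes were on average 0.79 log2 units lower in arrays labelled Dab2-cKO. A level for each group was not tested, so the side of the level on which a dim gene falls is uncertain. A fold change is given as at least a value where 1 group lay below the background level, and none is given where both did.

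The markers of other cells that sorted HFSCs could carry along also moved between the groups. In arrays labelled Dab2-cKO 11 of 12 leukocyte, 9 of 9 endothelial, 8 of 9 fibroblast and 8 of 9 muscle and adipocyte markers were higher. The marker counts in this paragraph stand beside 18.3% of all genes higher and 32.3% lower. Among genes above the background level in a group the shares were 34.3% and 34.5%. The summed leukocyte signal was 11.35 to 11.78 log2 units in WT and 15.90 to 16.15 in the other group, with Cd3e, Cd52 and Laptm5 below the background level in both. The endothelial sum was 9.25 to 9.41 and 12.09 to 12.45, with Tie1, Egfl7 and Esam below background in both groups. The fibroblast sum was 15.86 to 16.27 and 18.72 to 19.08 (Fbln1 below background in both groups), and the muscle and adipocyte sum was 16.46 to 17.08 and 19.48 to 19.63 (Plin1 below in both). Hair matrix, shaft and sheath markers went the other way, with all 11 measured lower, a sum of 20.21 to 20.44 against 9.80 to 9.87, and Hoxc13 below background in both groups. Of 7 melanocyte markers 5 were lower and 1, Sox10, was higher with both groups below background, and their sum was 14.31 to 14.52 against 10.43 to 10.58. The HFSC and basal keratinocyte markers had 7 of 11 higher and 3 lower (17.51 to 17.86 against 18.16 to 18.45), with Lgr5, Nfatc1 and Tcf7l1 below background in both groups. Cd34 and Itga6, the genes of the sorted antigens, were above the background level in both groups and higher in arrays labelled Dab2-cKO. Lgr5, Sox9 and Lhx2 were the 3 lower genes of that list (differences -1.63, -1.04 and -0.93). The part of these cells in the cyclin and CDK values was not tested. In bulk RNA fewer cells of a type and less RNA per cell cannot be told apart.

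Of the 37 members 21 passed the threshold of adjusted p under 0.05, or 56.8%, beside 50.6% of all genes tested. Lower members numbered 14 (37.8%), beside 32.3% of all genes, and higher members numbered 7 (18.9%), beside 18.3%. The arrays of the groups did not overlap for 22 members (59.5%), beside 63.5% of all genes. The median difference was -0.16 over the members and -0.14 over all genes. As counts over all genes with the signals as deposited, the members therefore lay close to the whole array. Counts among genes above the background level and under other scalings are given below and did not all lie as close. The results below concern which members moved and how they divided by role. With Dab2-cKO replicate 3 left out 4 members were higher and 13 lower, beside 16.4% and 25.4% of all genes.

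The signal level mattered for many members. Of the 37, 20 lay above the background level in both groups, 6 in 1 group and 11 in neither. Among the 26 above it in at least 1 group 5 were higher and 9 lower, beside 34.3% and 34.5% of the 8906 genes of that kind. The SD over 3 arrays ran from 0.02 to 0.34 in WT, with a median of 0.12, and from 0.04 to 0.38 in arrays labelled Dab2-cKO, with a median of 0.14.

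**Figure D1:**
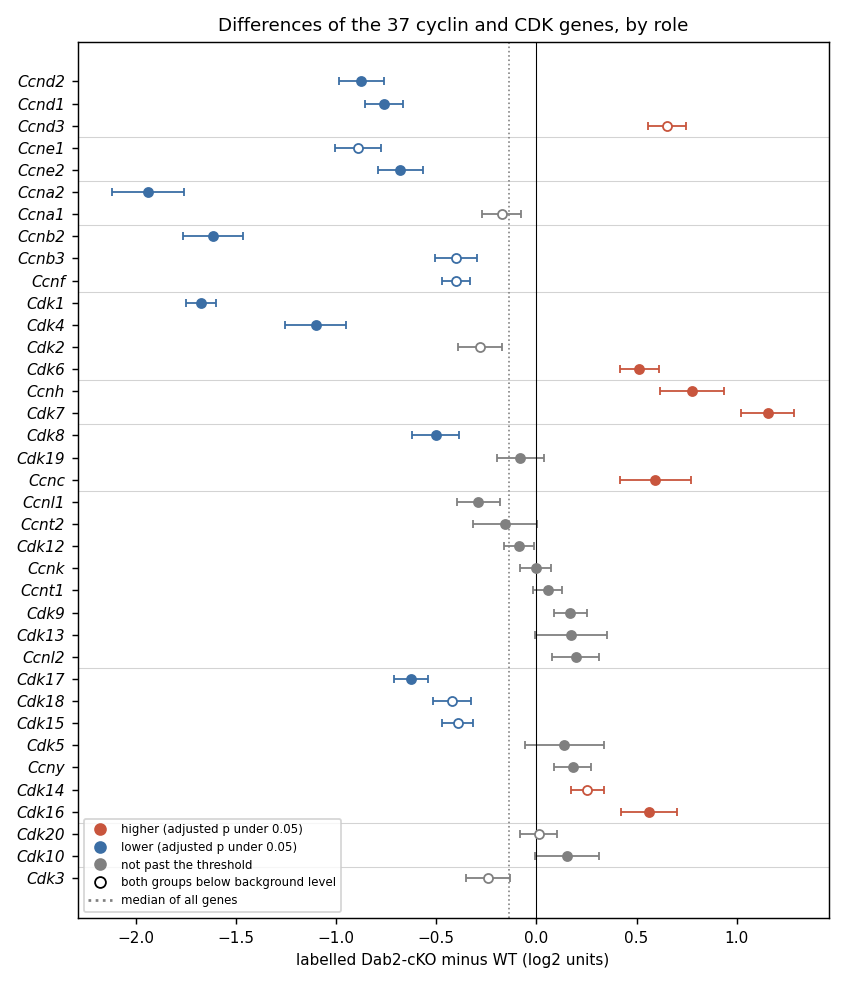
Difference of each of the 37 genes between arrays labelled Dab2-cKO and WT arrays, in log2 units on the horizontal axis, grouped by role from D-type cyclins at the top to Cdk3 at the bottom. Points are differences from limma on 3 arrays per group and bars are ± 1 SE, filled points lie above the background level in at least 1 group, colours give the direction of calls, and the dotted line is the median of all genes (-0.14). Ccna2 at -1.94 and Cdk7 at 1.15 are the extremes.

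How the arrays were put on 1 scale decided the direction of many members. The signals as deposited were compared with arrays centred on the median gene, quantile normalized, centred on the receptor genes, and centred on 1324 positive control rows. These moved the median difference of all genes by 0.20, 0.17, 0.79 and -0.35 log2 units. Of all called genes 36.2% were higher as deposited, and 58.4%, 55.7%, 90.4% and 14.1% in that order. For the members the counts of higher and lower were 7 and 14 as deposited. After median centring they were 11 and 9, beside 27.9% and 19.9% of all genes. With quantile normalization they were 7 and 11, beside 26.4% and 21.0%. With receptor centring they were 27 and 3 (73.5% and 7.78% of all genes), and with positive control centring 1 and 19 (8.50% and 51.8%). Relative to the median of all genes the member median was -0.02, a value that centring cannot change as it shifts all genes of an array alike, and -0.04 with quantile normalization.

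Only 4 members were called in the same direction under all 5 scalings, namely Ccna2, Ccnb2 and Cdk1 as lower and Cdk7 as higher. These 4 also kept their call with each array left out in turn and under every other alternative tried. Ccnd2, Ccne1 and Cdk4 were lower in all 5 scalings and lost the call in 1 of them, receptor centring. Ccnc, Ccnd3, Ccnh, Cdk6 and Cdk16 were higher in all 5 and lost the call in 1 of them, positive control centring. The other 25 members changed sign between scalings, and 9 of them were called in both directions.

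**Figure D2:**
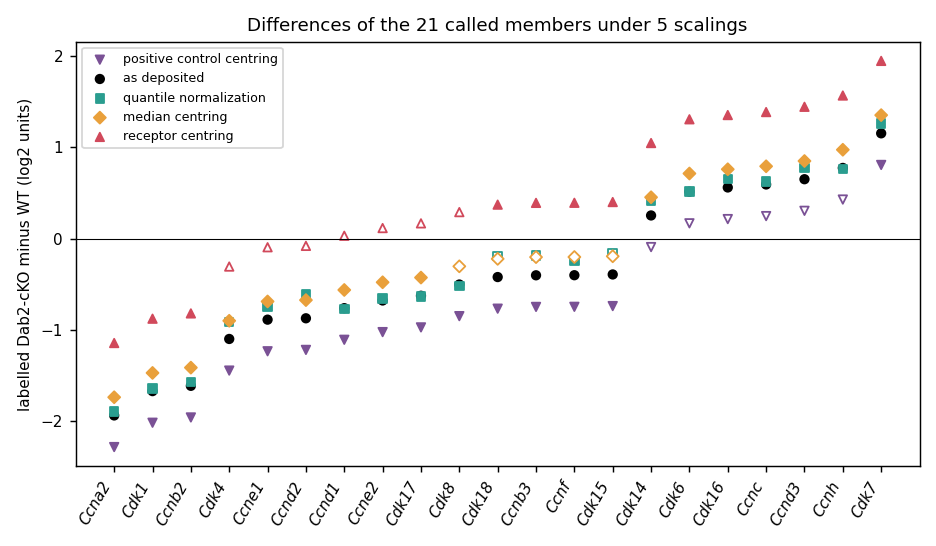
Differences between arrays labelled Dab2-cKO and WT arrays, in log2 units on the vertical axis, for the 21 called genes under the signals as deposited and 4 other scalings. Filled symbols passed the threshold and open symbols did not, and only Ccna2, Cdk1, Ccnb2 and Cdk7 were filled on the same side of 0 in all 5 scalings.

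The S phase and mitotic pairing of cyclin A2, cyclin B2 and Cdk1 was lower in arrays labelled Dab2-cKO. Ccna2, the cyclin of DNA synthesis and G2, read 9.39, 9.96 and 9.82 log2 units in WT and 7.97, 7.83 and 7.55 in the other group. Every WT array lay more than 1 unit above every array labelled Dab2-cKO. Ccna2 fell by 1.94 ± 0.18, or 3.83-fold (adjusted p = 0.000378). Of all genes tested 2.71% had a lower difference than Ccna2, and among genes above the background level 8.90% did. With receptor centring, the least favourable scaling for a fall, the difference was -1.14.

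Ccnb2, a B-type cyclin of mitosis, read 7.53, 7.94 and 8.005 in WT and 6.29, 6.30 and 6.04 in arrays labelled Dab2-cKO. The WT arrays were all above the background level and the others all below it. The gene was at least 1.48-fold lower (difference -1.61 ± 0.15, adjusted p = 0.000376, and -0.82 with receptor centring). Cdk1, the kinase that drives mitosis, read 8.34, 8.21 and 8.35 in WT and 6.66, 6.57 and 6.65 in the other group. These were tight groups with no overlap, again on either side of the background level. Cdk1 was at least 2.05-fold lower (difference -1.67 ± 0.07, adjusted p = 2.91e-05, and -0.88 with receptor centring). Of all genes, 4.49% had a lower difference than Ccnb2 and 4.11% a lower one than Cdk1. Among genes above the background level these shares were 13.4% and 12.6%.

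The rest of the A, B and F cyclins were dim. Ccna1, a germ line cyclin, differed by -0.17 ± 0.10 (adjusted p = 0.173). Ccnb3, known for its part in meiosis, fell by 0.40 ± 0.10, but the call was lost when WT replicate 1 or 2 or Dab2-cKO replicate 1 or 3 was left out, with adjusted p up to 0.0608. Ccnf, an F-box protein of a ubiquitin ligase that does not activate a CDK, read 6.08, 6.15 and 6.13 in WT and 5.76, 5.66 and 5.74 in the other group, and fell by 0.40 ± 0.07 (adjusted p = 0.00398). With median centring neither Ccnb3 (-0.20, adjusted p = 0.136) nor Ccnf (-0.20, adjusted p = 0.0879) passed, and with quantile normalization Ccnb3 did not (-0.19, adjusted p = 0.153). All 3 lay below the background level in both groups, and all 3 were called higher with receptor centring (0.62 for Ccna1, 0.39 for Ccnb3 and 0.39 for Ccnf).

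Promoter windows from RefSeq (GRCm38.p6, 250 bases before to 50 after a start site) were held for 27 of the 37 members. Those without a window included the lower members Ccna2, Ccnd1, Ccnd2, Ccne2 and Cdk17 and the higher member Ccnh. They were searched on both strands for 3 elements known from cell cycle promoters. These were the cell cycle homology region (CHR, searched as TTTGAA or TTTAAA), the CCAAT box (CCAAT) and an E2F site (TTTCCCGC, TTTCGCGC, TTTGCCGC or TTTGGCGC). No match of 1 element overlapped a match of another in these windows. The CHR was matched in 27.6% of all 32851 windows, the CCAAT box in 37.4%, both in 10.7% and the E2F site in 2.26%. Of the 9 lower members with a window 5 held a CHR, 4 a CCAAT box, 3 both (Ccnb2, Ccnf and Cdk1) and 1 an E2F site (Cdk1). Of the 12 members not called 1 held a CHR, 7 a CCAAT box, none both and 1 an E2F site (Cdk2). Of the 6 higher members 2 held a CHR, 3 a CCAAT box and 1 both (Cdk16), with no E2F site. These counts were not tested, and a match of letters is not a site in use.

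The 120 bases just before the start site are shown for Cdk1 and Ccnb2, which were lower in all 5 scalings, and for Cdk7, which was higher in all 5. All are read 5′ to 3′ on the minus strand, and capitals mark CHR matches and CCAAT boxes, with ATTGG the CCAAT box read on the opposite strand. Cdk1 is at chr10:69352913-69353032, Ccnb2 at chr9:70421555-70421674 and Cdk7 at chr13:100730943-100731062.
Cdk1: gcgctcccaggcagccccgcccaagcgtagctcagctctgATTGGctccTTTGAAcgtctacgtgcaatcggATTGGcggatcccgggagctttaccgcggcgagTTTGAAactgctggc
Ccnb2: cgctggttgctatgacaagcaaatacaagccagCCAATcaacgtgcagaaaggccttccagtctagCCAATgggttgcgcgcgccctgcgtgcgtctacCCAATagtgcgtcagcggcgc
Cdk7: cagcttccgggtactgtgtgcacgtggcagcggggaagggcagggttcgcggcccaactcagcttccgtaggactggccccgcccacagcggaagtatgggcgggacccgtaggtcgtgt
The 3 CCAAT boxes of Ccnb2 began 33 bases apart, and the 2 shown for Cdk1 began 32 bases apart. The stretch of Cdk7 held no match, and its only match in the whole window was a CHR that began 43 bases after the start site.

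**Figure D3:**
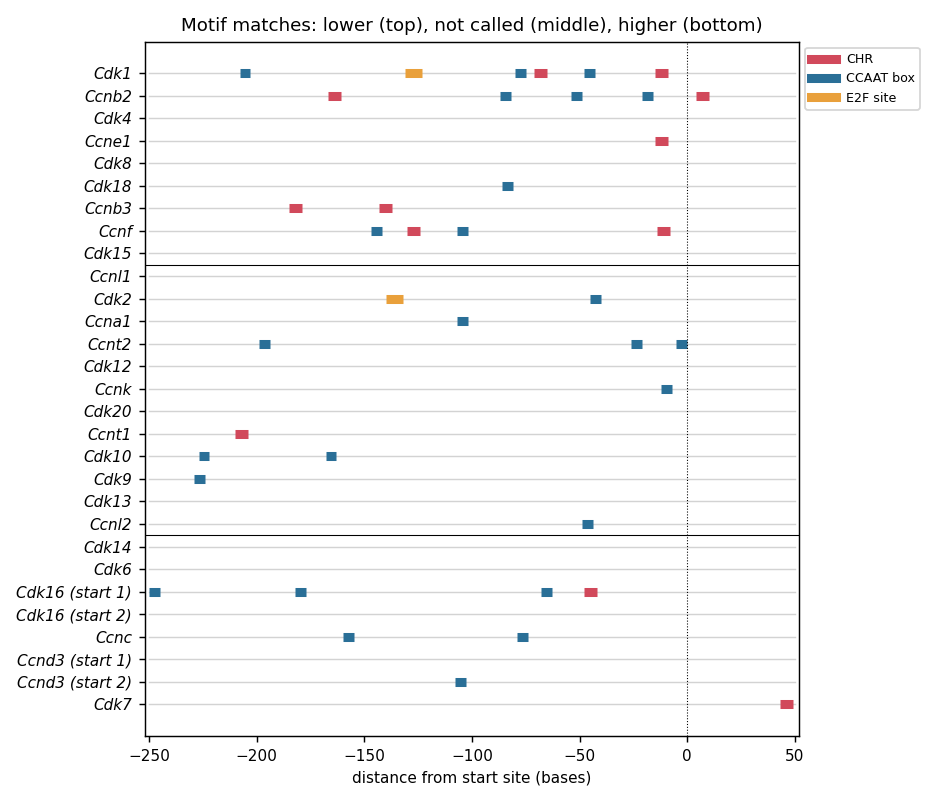
Matches to the CHR, the CCAAT box and the E2F site in the promoter windows of 27 members, placed by distance from the start site in bases (dotted line at 0). Lower members are at the top, members not called in the middle and higher members at the bottom, and genes with 2 start sites have 2 lines. Cdk1 carries all 3 kinds of match, while Cdk7 has only 1 match, after its start site.

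The 3 D-type cyclins, which sense growth signals in G1, did not move together. Ccnd1 read 8.03, 8.30 and 8.20 in WT and 7.50, 7.40 and 7.35 in arrays labelled Dab2-cKO, without overlap. It was 1.70-fold lower (difference -0.76 ± 0.10, adjusted p = 0.00112), a fall that became 0.03 with receptor centring. Ccnd2 read 12.66, 12.96 and 12.89 in WT and 12.10, 11.83 and 11.96 in the other group, again without overlap. It was 1.83-fold lower (difference -0.87 ± 0.11, adjusted p = 0.00124), and -0.08 with receptor centring (adjusted p = 0.656).

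Ccnd3 went the other way, with 5.86, 5.89 and 5.81 in WT and 6.54, 6.34 and 6.64 in arrays labelled Dab2-cKO. All 6 values lay below the background level, so no fold is given, but the groups were apart. It rose by 0.65 ± 0.09 (adjusted p = 0.00206), and by 0.30 with positive control centring (adjusted p = 0.161).

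The kinases that D-type cyclins activate divided in the same manner. Cdk4 read 11.69, 11.61 and 11.25 in WT and 10.63, 10.28 and 10.34 in arrays labelled Dab2-cKO, without overlap. It was 2.14-fold lower (difference -1.10 ± 0.15, adjusted p = 0.00169), and -0.31 with receptor centring (adjusted p = 0.103). Cdk6 read 7.01, 7.15 and 7.04 in WT, below the background level, and 7.75, 7.50 and 7.50 in the other group, above it. It was at least 1.25-fold higher (difference 0.51 ± 0.10, adjusted p = 0.00577), and 0.17 with positive control centring (adjusted p = 0.426).

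Both E-type cyclins, which start DNA synthesis with Cdk2, were lower, although Ccne2 turned positive with receptor centring. Ccne1 read 6.36, 6.39 and 6.69 in WT and 5.63, 5.67 and 5.47 in arrays labelled Dab2-cKO. It fell by 0.89 ± 0.11 with all arrays below the background level (adjusted p = 0.00128), and by 0.09 with receptor centring. Ccne2 read 7.32, 7.51 and 7.57 in WT, just above the background level, and 6.89, 6.60 and 6.88 in the other group, below it. It was at least 1.15-fold lower (difference -0.68 ± 0.11, adjusted p = 0.00360), and its difference with receptor centring was 0.12.

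Cdk2, the partner of cyclins E and A, did not pass the threshold. It read 6.71, 6.98 and 6.89 in WT and 6.73, 6.44 and 6.57 in arrays labelled Dab2-cKO, all below the background level. The groups overlapped, and the difference of -0.28 ± 0.11 had an adjusted p = 0.0766. Cdk2 was called lower with positive control centring (-0.63) and higher with receptor centring (0.51).

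**Figure D4:**
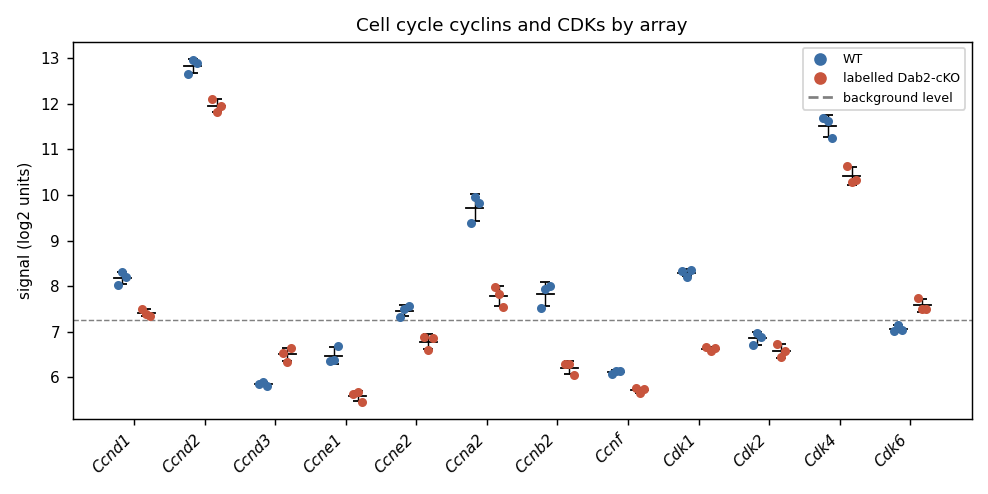
Log2 signal of 12 cell cycle cyclins and CDKs on each array (vertical axis), with points for the 3 WT and 3 labelled Dab2-cKO arrays, horizontal bars at the group means and error bars of 1 SD. The dashed line is the background level of 7.26. Heights are not comparable between genes, and within a gene only Cdk2 has overlapping groups, while Ccnd3 and Cdk6 are higher in arrays labelled Dab2-cKO.

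Of the 10 A-type, B-type, D-type and E-type cyclins and cyclin F measured, 8 were lower, 1 (Ccnd3) was higher and 1 (Ccna1) was not called, beside 32.3% of all genes lower and 18.3% higher. Their median difference was -0.72, and -0.14 over all genes. With median centring 6 were lower and 1 higher, beside 19.9% and 27.9% of all genes. With positive control centring 9 were lower and none higher (51.8% and 8.50% of all genes), and with receptor centring 2 were lower and 4 higher (7.78% and 73.5%). The study names several of these cyclins and kinases as changed on these samples, so the counts are not independent evidence of their direction. The general proliferation genes lay on the same side, with 9 of 10 lower and none higher, and 4 of 10 lower with receptor centring. Mki67, the gene of the proliferation marker Ki67, was 13.4-fold lower (14.46 ± 0.12 in WT and 10.71 ± 0.40, SD, n = 3, adjusted p = 5.32e-05). Top2a, a topoisomerase of dividing cells, was at least 5.28-fold lower, and Pcna, the clamp of the replication fork, 2.42-fold lower. Bub1, a checkpoint kinase of mitosis, fell by 1.19, with neither group above the background level. The hair matrix, shaft and sheath markers of the growing follicle fell in the same arrays, as given above. The part of cells of these types in the cyclin values was not tested.

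The CDK-activating kinase was higher in arrays labelled Dab2-cKO. Cdk7, its catalytic subunit, phosphorylates the cell cycle CDKs and, within the transcription factor TFIIH, RNA polymerase II. It read 8.77, 9.08 and 9.04 in WT and 10.34, 10.04 and 9.98 in the other group, almost 1 unit apart at the nearest. Cdk7 was 2.23-fold higher (difference 1.15 ± 0.13, adjusted p = 0.000825), and 0.81 with positive control centring, the least favourable scaling for a rise. Of all genes 5.34% had a higher difference than Cdk7, and among genes above the background level 15.9% did.

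Ccnh, the cyclin of Cdk7, read 7.92, 7.90 and 7.87 in WT and 8.90, 8.31 and 8.81 in arrays labelled Dab2-cKO. The groups did not overlap, and replicate 2 of the higher group stood closest to WT. Ccnh was 1.71-fold higher (difference 0.77 ± 0.16, adjusted p = 0.00818), and 0.43 with positive control centring (adjusted p = 0.0630). Mnat1, the assembly factor of the same kinase, is not a cyclin or CDK and was singled out after its values were seen. It read 7.50, 7.59 and 7.44 in WT and 7.84, 8.03 and 7.88 in the other group, without overlap. It was 1.33-fold higher (difference 0.41 ± 0.08, adjusted p = 0.00819), and 0.06 with positive control centring.

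The Mediator kinase module, in which cyclin C activates Cdk8 or Cdk19, was split. Ccnc read 8.30, 8.50 and 8.52 in WT and 9.36, 8.69 and 9.05 in arrays labelled Dab2-cKO, and replicate 2 of that group lay close above the nearest WT array. It was 1.51-fold higher (difference 0.59 ± 0.18, adjusted p = 0.0313). The call was lost when WT replicate 1, 2 or 3 or Dab2-cKO replicate 1 or 3 was left out, with adjusted p up to 0.0883, and with positive control centring (0.25, adjusted p = 0.254). Cdk8 read 8.03, 8.16 and 8.32 in WT and 7.61, 7.85 and 7.53 in the other group, without overlap. It was 1.42-fold lower (difference -0.50 ± 0.12, adjusted p = 0.0133), which became 0.29 with receptor centring and did not pass with median centring (-0.30, adjusted p = 0.0648). Cdk19, the second kinase of the module, differed by -0.08 ± 0.12 (adjusted p = 0.594), with overlapping groups. Differences between genes of the same array were also taken for 9 pairs chosen after their values were seen, and are a description only. In 3 of the pairs both genes lay above the background level in both groups. Ccnc relative to Cdk8 was 1.10 log2 units higher in arrays labelled Dab2-cKO, a 2.14-fold shift of their ratio without overlap. Cdk19 relative to Cdk8 was 0.42 higher and Ccnh relative to Cdk7 was -0.38, and in both of these the groups overlapped.

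None of the 8 cyclins and CDKs of transcript elongation and RNA processing passed the threshold, beside 50.6% of all genes that did. All 8 lay above the background level in at least 1 group, and of genes of that kind 34.3% were higher and 34.5% lower. They were Cdk9 with its cyclins Ccnt1 and Ccnt2, which release paused RNA polymerase II, Cdk12 and Cdk13 with their cyclin Ccnk, and the splicing-linked cyclins Ccnl1 and Ccnl2. Their differences ran from -0.29 for Ccnl1 to 0.20 for Ccnl2, with a median of 0.03. Only Cdk9 had groups that did not overlap (0.17 ± 0.08, adjusted p = 0.135), beside 63.5% of all genes. Without WT replicate 3 Ccnl1 was called lower (-0.37, adjusted p = 0.0366). Under median centring 3 of the 8 were called higher, beside 27.9% of all genes. Under receptor centring all 8 were higher, beside 73.5%, and under positive control centring 2 were lower, beside 51.8%. A p above the threshold does not show that their levels were the same, and SEs ran from 0.07 for Ccnt1 to 0.18 for Cdk13.

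**Figure D5:**
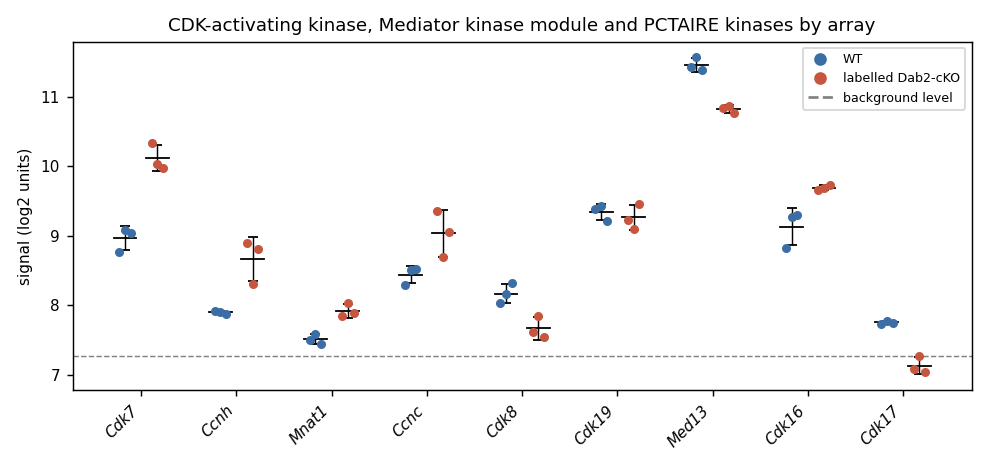
Log2 signal on each array (vertical axis) of the CDK-activating kinase genes Cdk7, Ccnh and Mnat1, the Mediator kinase module genes Ccnc, Cdk8, Cdk19 and Med13, and the PCTAIRE kinases Cdk16 and Cdk17. Points are the 3 WT and 3 labelled Dab2-cKO arrays, horizontal bars are group means, error bars are 1 SD and the dashed line is the background level of 7.26. Replicate 2 of the arrays labelled Dab2-cKO, drawn as the middle point of its group, is the lowest of the 3 for Ccnh and Ccnc.

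The PCTAIRE kinases Cdk16, Cdk17 and Cdk18, named after a sequence motif of the kinase, also moved apart. Cdk16, which cyclin Y activates, read 8.82, 9.27 and 9.30 in WT and 9.66, 9.68 and 9.73 in arrays labelled Dab2-cKO. The latter lay close together and above every WT array. It was 1.48-fold higher (difference 0.56 ± 0.14, adjusted p = 0.0166), but its adjusted p was 0.0503 without Dab2-cKO replicate 3 and 0.315 with positive control centring (0.21). Cdk17 read 7.73, 7.78 and 7.75 in WT and 7.08, 7.27 and 7.03 in the other group, without overlap. It was at least 1.40-fold lower (difference -0.63 ± 0.08, adjusted p = 0.00155), and 0.17 with receptor centring.

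Cdk18 and the PFTAIRE kinases Cdk14 and Cdk15 lay below the background level in both groups. Cdk18 fell by 0.42 ± 0.09 and Cdk15 by 0.39 ± 0.08, and both were called higher with receptor centring (0.37 and 0.40). Neither passed with median centring (adjusted p = 0.0802 for Cdk18 and 0.119 for Cdk15) or with quantile normalization (adjusted p = 0.101 and 0.197). Cdk14, which cyclin Y also activates, rose by 0.25 ± 0.08 (adjusted p = 0.0418), became -0.09 with positive control centring, and lost its call when WT replicate 1, 2 or 3 or Dab2-cKO replicate 1 or 3 was left out, with adjusted p up to 0.107. Ccny differed by 0.18 ± 0.09 (adjusted p = 0.140). Cdk5, best known as a kinase of neurons, differed by 0.14 ± 0.20 (adjusted p = 0.581). Cdk10 differed by 0.15 ± 0.16 and Cdk20, which lay below the background level, by 0.01 ± 0.09. Cdk3, a transcribed pseudogene in the RefSeq table, differed by -0.24 ± 0.11 with both groups below the background level (adjusted p = 0.106, and 0.0448 without Dab2-cKO replicate 2).

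The regulators of CDK activity were read from lists of partner genes. The counts of each list below stand beside 18.3% of all genes higher and 32.3% lower as deposited, 73.5% and 7.78% with receptor centring, and 8.50% and 51.8% with positive control centring. Of 8 CDK inhibitor genes 2 were higher and 1 lower, and 6 lay below the background level in both groups. Cdkn1a, the only 1 above that level in both, differed by -0.14 ± 0.16 (adjusted p = 0.486). Over the 5 scalings the difference of Cdkn1a ran from -0.48 to 0.66. Cdkn3, a phosphatase that inactivates CDKs, was at least 1.49-fold lower (difference -0.84 ± 0.18), and -0.04 with receptor centring. Cdkn1c, which encodes p57, rose by 0.46 ± 0.15 and Cdkn2d, which encodes p19-INK4d, by 0.37 ± 0.10, both below the background level in both groups and neither called with positive control centring. With receptor centring 7 of the 8 were higher and none lower, and with positive control centring none was higher and 2 were lower.

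Of 18 measured pocket protein, E2F and DREAM or MuvB genes, which control cell cycle transcription, 10 were lower and 3 higher. Tfdp1, the dimer partner of E2F factors, was 2.45-fold lower (difference -1.29 ± 0.13, adjusted p = 0.000569) and E2f3, an activating E2F, at least 1.15-fold lower (difference -1.37 ± 0.11, adjusted p = 0.000232). Both remained called under all 5 scalings. Rb1 was 2.21-fold lower and Rbl1 1.92-fold lower, and these pocket proteins, which repress E2F targets, lost the call with receptor centring (adjusted p = 0.197 and 0.533). The other rows of Rb1 and E2f3 were dimmer, below the background level in both groups, and also had lower means in arrays labelled Dab2-cKO. With receptor centring 9 genes of this list were higher and 2 lower.

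Of 8 genes of CDK phosphatases, inhibitory kinases, Cks subunits and the assembly factor 5 were lower and 2 higher. Cdc25c, a phosphatase that activates Cdk1, fell by 1.25 ± 0.13 below the background level. Cks1b, a small subunit of CDK complexes, was 1.90-fold lower, and its relative Cks2 fell by 0.62 ± 0.11 below the background level. Wee1, a kinase that inhibits Cdk1, was 1.50-fold higher (difference 0.59 ± 0.12, adjusted p = 0.00783). With receptor centring Cks1b lost its call (-0.13) and Cks2 turned to 0.18, while Wee1 lost its call with positive control centring (0.24). In the list 3 genes were higher and 1 lower with receptor centring, and none was higher and 6 were lower with positive control centring.

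Of 16 measured genes of cyclin degradation 4 were higher and 4 lower, which became 11 and 2 with receptor centring and 2 and 7 with positive control centring. Cdc20, the mitotic activator of the anaphase-promoting complex, was at least 2.14-fold lower (difference -1.94 ± 0.11), and Ube2c, the E2 enzyme of that complex, at least 2.95-fold lower (difference -1.84 ± 0.13). Subunits of the same complex were higher, Cdc16 by 2.28-fold (difference 1.19 ± 0.17) and Anapc2 by 4.58-fold (difference 2.20 ± 0.49, adjusted p = 0.0113). All 4 kept their call under all 5 scalings. Anapc2 read 7.34, 7.52 and 7.57 in WT and 10.14, 8.47 and 10.42 in arrays labelled Dab2-cKO, so that replicate 2 was well below the other two of its group and above all WT arrays.

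Of 9 measured partners of the transcriptional CDKs 1 was higher and 1 lower, which became 8 and 0 with receptor centring and 0 and 4 with positive control centring. Med13, which links the Mediator kinase module to Mediator, was 1.55-fold lower (difference -0.63 ± 0.08, adjusted p = 0.00119), and 0.16 with receptor centring. Hexim1, an inhibitor of Cdk9, was 1.25-fold higher (difference 0.32 ± 0.11, adjusted p = 0.0486), and -0.03 with positive control centring. Among 16 measured genes of other cyclin-like and CDK-like proteins 2 were higher and none lower, which became 16 and 0 with receptor centring and 1 and 3 with positive control centring. Ccng1, an atypical cyclin and p53 target, read 11.07, 10.53 and 10.59 in WT and 13.70, 13.49 and 14.02 in arrays labelled Dab2-cKO. It was 8.03-fold higher (difference 3.01 ± 0.19, adjusted p = 0.000103) and called under all 5 scalings. Ccng2 rose by 0.27 ± 0.08 below the background level, and was -0.07 with positive control centring.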

How the data were processed

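HFSC arrays of 3 WT and 3 Dab2-cKO samples were analysed. The authors deposited log2 signals, 1 per array row, made with RMA in Affymetrix Expression Console according to the submitters' processing notes, which state no versions. RMA equalises the arrays' probe distributions, which hides any change in the amount of RNA per cell. Of 72688 rows, 6732 control rows were left out of gene tests. Of 65956 transcript rows the 31292 that named 1 gene were used, and of 1522 rows naming several genes the 196 shared with microRNA genes only. The other shared rows and 33142 unnamed rows were left out. Symbols were updated through a RefSeq table of GRCm38.p6, which held 30927 of the 30929 genes, and 443 genes had several rows, of which the brightest by mean was kept. Log2 signals ran from 2.25 to 19.93.

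The groups were compared in limma 3.58.1 under R 4.3.3 (lmFit and eBayes, no covariate, two-sided, Benjamini-Hochberg adjustment over 30929 genes, threshold 0.05). No detection calls were used, and the number of arrays limits precision. As nothing says which animals each array came from, p-values measure the spread between these samples.

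Every member is named, with each array's value for members called and above the background level and for the main cell cycle genes. From each partner list up to 4 called genes with the largest differences are named, and Cdkn1a is named although it was not called. Members and lists were chosen with earlier results of these data known. Alternatives were 4 scalings, genes above background only, the mean of a gene's rows, rows naming 1 gene, a trended robust variance, a replicate block and each array left out.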

Additional observations from a re-analysis of the deposited data

How the results depend on the processing

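Over the 15 alternatives the 37 members had 540 values. For called members 264 kept direction and call, 33 kept direction but lost the call, and 9 changed sign. For members not called 182 kept direction without a call, 19 kept direction and passed, and 33 changed sign. Values that changed sign were counted apart from the threshold, so some of them also passed it or lost a call. Why a scaling moved a value was not tested. Members higher and lower numbered 7 and 14 as deposited, 11 and 9 after median centring, 27 and 3 with receptor centring, 1 and 19 with positive control centring, and 5 and 9 among genes above background, where fewer were tested. With 1 array left out higher members numbered 4 to 7 and lower members 13 to 15. Over all genes, 5675 were higher and 9987 lower. The counts were 8621 and 6148 after median centring, 8175 and 6500 with quantile normalization, 22723 and 2406 with receptor centring, 2630 and 16036 with positive control centring, and 3036 and 3069 above background. Leaving out 1 array gave 4743 to 5325 higher and 7732 to 8929 lower.

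Differences that changed sign with receptor centring were Ccna1 0.62, Ccnb3 0.39, Ccnd1 0.031, Ccne2 0.12, Ccnf 0.39, Ccnk 0.79, Ccnl1 0.50, Ccnt2 0.64, Cdk2 0.51, Cdk3 0.55, Cdk8 0.29, Cdk12 0.71, Cdk15 0.40, Cdk17 0.17, Cdk18 0.37 and Cdk19 0.71. With positive control centring they were Ccnl2 -0.15, Ccnt1 -0.29, Ccny -0.17, Cdk5 -0.21, Cdk9 -0.18, Cdk10 -0.20, Cdk13 -0.17, Cdk14 -0.093 and Cdk20 -0.34. With median centring they were Ccna1 0.026, Ccnk 0.20, Ccnt2 0.043, Cdk12 0.11 and Cdk19 0.12, and with quantile normalization Ccna1 0.054, Ccnk 0.048 and Cdk3 0.015. With 1 array left out the members that changed sign ran from -0.058 to 0.030 (Ccnk), -0.063 to 0.31 (Cdk5), -0.0075 to 0.26 (Cdk10), -0.18 to 0.0023 (Cdk19) and -0.063 to 0.068 (Cdk20).

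The labels do not say whether the replicate numbers pair the samples, and correlations over 3 arrays per group cannot settle it. Deviations of same-numbered arrays correlated at -0.08, -0.22 and -0.02 for numbers 1, 2 and 3, and those of other arrays at -0.12 to 0.20. With the replicate number as a block 5 members were higher and 14 lower (4766 and 8037 genes), and Ccnc and Cdk14 lost the call (adjusted p = 0.0651 and 0.0856).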
